A study of Homo sapiens with 6 samples.

Results

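The 3 libraries of A549 cells given PBS, the vehicle control of a 6-library RNA sequencing series, were described across all 19876 gene symbols of the deposited tables. The libraries were chosen by their treatment label alone, and no measured value entered the choice. A549 is an established line from a human lung adenocarcinoma. The labels give lung as the source, a WT genotype and culture in DMEM with serum and antibiotics; dose and duration were not stated. The other 3 libraries, given rhTR11B, entered no value. The labels call the PBS libraries biological replicates and do not say whether they came from separate cultures, so every SD measures the spread between these samples, which may be technical. Levels are FPKM, counts scaled by the length of the gene and the total of the library, and a gene was taken as expressed at an FPKM of at least 1 in all 3 libraries. In bulk RNA, fewer cells with a transcript and less transcript per cell cannot be told apart.

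Adenocarcinomas of the lung arise from epithelium that secretes mucus or surfactant, and lines derived from them usually keep keratins and junction proteins while losing many differentiated products. A549 is known as background for inactivating mutations of STK11, KEAP1 and SMARCA4 and a homozygous loss of CDKN2A together with MTAP. With KEAP1 impaired, the transcription factor NRF2 (NFE2L2) escapes degradation, and the aldo-keto reductases of the AKR1C group are among the genes for which the line is known. These genes were therefore examined first, as a check of the label.

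The check went against the label. CDKN2A, which encodes the cell cycle inhibitors p16 and p14ARF (chromosome 9, 21967752 to 21995324, GRCh38.p14), had 2242, 2036 and 2310 counts in PBS replicates 1, 2 and 3, or 12.6 ± 0.856 FPKM (mean ± SD, n = 3, as for all values below written this way). MTAP, the methionine salvage enzyme beside it (chromosome 9, 21802636 to 21941115), had 1719, 2013 and 1905 counts, or 4.35 ± 0.296 FPKM. Each library thus held over 1000 counts of both genes that the line is known to lack. CDKN2B, the neighbouring inhibitor p15 (22002903 to 22009313), had 198, 234 and 215 counts and 1.43 ± 0.106 FPKM. On either side of these genes, KLHL9, an adaptor of a ubiquitin ligase, reached 7.12 ± 0.624 FPKM, and DMRTA1, a transcription factor gene, 0.5598 ± 0.0861 FPKM. CDKN2B-AS1, an antisense RNA that overlaps the 5′ end of CDKN2A and all of CDKN2B, had 146, 120 and 94 counts. The strand setting of the counting is not given in the sources used here, and without strand, reads of these partners cannot be told apart.

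The AKR1C genes, enzymes that reduce steroids and carbonyls, were almost without counts. AKR1C2 had 0 counts in each library, AKR1C3 had 2, 1 and 0 counts and AKR1C4 had 0, 0 and 1. Counts of 0 allow up to 3 counts in a library. AKR1C1, AKR1B10, AKR1B15, ALDH1A1 and ALDH3A1 were not analysed here. The AKR1C members share near-identical sequence, so the division of reads among them is uncertain, and the 4 measured members, AKR1C8 included, held 5 counts in all 3 libraries together.

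STK11, KEAP1 and SMARCA4 were expressed, and their RNA levels alone do not show a mutation. STK11, the kinase upstream of AMPK, had 44.8 ± 2.37 FPKM, and KEAP1, the adaptor that marks NRF2 for degradation, had 37.9 ± 1.84 FPKM. NFE2L2 had 31.6 ± 1.49 FPKM and the chromatin remodeller SMARCA4 8.86 ± 0.672 FPKM. Of the 11 genes on this list, 10 were expressed, and their median was 8.86 FPKM, against 1.71 FPKM over all symbols of the table and 4.90 FPKM over the protein-coding ones. Relative to its mean, SMARCA4 spread most of these 4, from 8.37 to 9.63 FPKM. Because CDKN2A, MTAP and the AKR1C genes went against the label, the samples are named below the PBS libraries labelled A549, and no other identity is assigned.

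**Figure D1:**
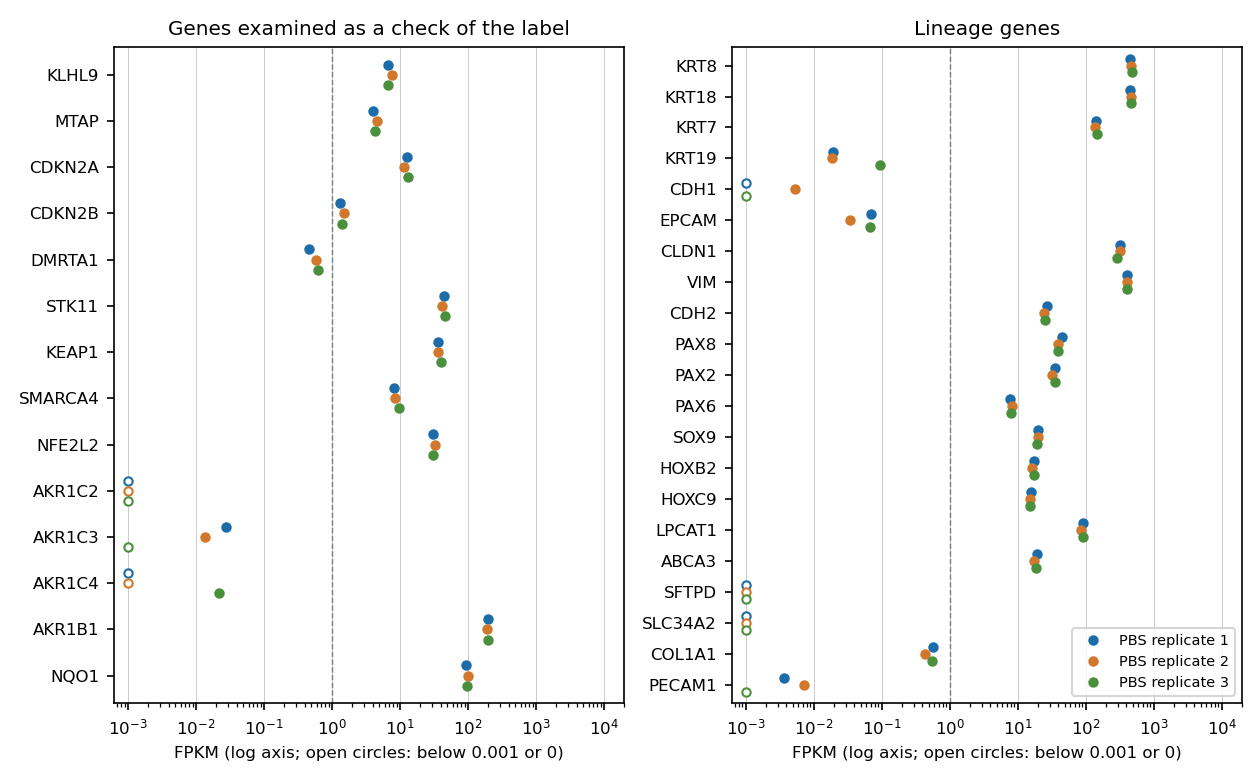
FPKM of each gene in PBS replicates 1 to 3 on a log axis, 1 point per library, for genes examined as a check of the label, with neighbours of CDKN2A and targets of NRF2 (left), and lineage genes (right). Open circles stand at the left edge for libraries at 0 or below 0.001, and the dashed line marks 1 FPKM. CDKN2A and MTAP lie to the right of the line in every library, and the AKR1C genes to its left. On the right panel, CDH1, EPCAM and KRT19 lie to the left of the line and KRT8, KRT18 and KRT7 to its right.

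The upstream DNA of 3 of these genes is shown because it places 2 genes with counts beside a gene with almost none. The 250 bases before the start of transcription, from RefSeq (GRCh38.p14), follow 5′ to 3′ on the gene's strand, with every CG dinucleotide in capitals. They lie at chr9:21995325-21995574 (minus strand), chr9:21802386-21802635 and chr10:5048531-5048780 (both plus strand).
CDKN2A: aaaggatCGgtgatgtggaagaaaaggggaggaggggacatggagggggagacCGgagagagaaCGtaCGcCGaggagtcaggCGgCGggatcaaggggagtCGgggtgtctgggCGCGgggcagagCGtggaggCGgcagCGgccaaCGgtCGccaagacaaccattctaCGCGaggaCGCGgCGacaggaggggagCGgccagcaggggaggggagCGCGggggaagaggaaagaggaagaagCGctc
MTAP: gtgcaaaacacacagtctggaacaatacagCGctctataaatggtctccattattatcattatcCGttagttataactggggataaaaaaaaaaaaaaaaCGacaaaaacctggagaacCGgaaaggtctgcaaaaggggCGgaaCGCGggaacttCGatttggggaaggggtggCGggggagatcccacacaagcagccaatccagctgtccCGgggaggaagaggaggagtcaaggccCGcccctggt
AKR1C3: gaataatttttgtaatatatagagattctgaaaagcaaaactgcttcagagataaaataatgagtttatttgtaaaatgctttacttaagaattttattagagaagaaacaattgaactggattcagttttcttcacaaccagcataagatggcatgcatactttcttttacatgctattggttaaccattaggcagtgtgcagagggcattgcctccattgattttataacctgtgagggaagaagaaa
CDKN2A held 24 CG dinucleotides in this window, MTAP 11 and AKR1C3 0. For CDKN2A the window abuts the outer end of the gene, and any start further inside the gene was not examined. Over the 14683 symbols with both a level and a promoter, the median number of CG dinucleotides was 8 in the 3899 genes under 0.1 FPKM, 18 in the 1984 genes from 0.1 to 1 FPKM, 21 in the 4466 genes from 1 to 10 FPKM and 22 in the 3936 genes from 10 to 100 FPKM. It was 21.5 in the 398 genes at 100 FPKM or more. The genes without appreciable RNA thus had fewer CG dinucleotides than the classes above them, and the 3 classes at 1 FPKM or more lay close together. Within their own classes, CDKN2A lay above the median of 22, whereas MTAP and AKR1C3 lay below the medians of 21 and 8. These are descriptions across genes, which are not independent replicates.

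The keratins KRT8, KRT18 and KRT7, CLDN1 and vimentin each exceeded 100 FPKM, whereas 9 of the 19 measured epithelial keratin and adhesion genes were not expressed in all libraries. The keratin partners KRT8 and KRT18, filament proteins of single-layered epithelia, had 454, 465 and 483 FPKM and 451, 470.4 and 472 FPKM in replicates 1, 2 and 3, and their ranges overlapped. KRT7, a keratin of glandular epithelia, had 142 ± 4.48 FPKM and the tight junction protein CLDN1 311 ± 16.9 FPKM. KRT80 and the junction scaffold TJP1 followed at 13.9 and 12.7 FPKM. E-cadherin (CDH1), the main adhesion protein of epithelial junctions, had 0, 1 and 0 counts, the epithelial adhesion molecule EPCAM had 4, 2 and 4 and the simple keratin KRT19 had 1, 1 and 5. Of the 19 genes of this list, 10 were expressed, 4 of them at 100 FPKM or more, and 6 had a mean under 0.1 FPKM. Over all symbols 53.2% were expressed, and over protein-coding symbols 68.6%. The splicing regulator of epithelia ESRP1 had 0.598 FPKM and its paralog ESRP2 0.007702 FPKM. KRT8 and KRT18 have many processed pseudogenes, so their reads could be divided among copies.

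VIM, the intermediate filament of mesenchymal cells, had 404, 413 and 409 FPKM in replicates 1, 2 and 3, so vimentin lay near KRT8 and KRT18. N-cadherin (CDH2) had 27.2, 24.6 and 25.4 FPKM, and it was the highest of 20 measured classical and related cadherins. Only 3 of those 20 were expressed, the others being CDH24 at 8.36 and CDH13 at 2.06 FPKM. The transcription factors SNAI1 and ZEB1 had 5.48 and 2.79 FPKM. S100A4 was at 1.74 FPKM. Fibronectin (FN1), the lysyl oxidase gene LOX and SPARC, matrix products of mesenchymal cells, were below 1 FPKM, at 0.367, 0.00831 and 0.00766 FPKM. The mesenchymal list therefore held 6 expressed genes of 10, with a median of 2.27 FPKM. Its share of 60% lies between the 53.2% over all symbols and the 68.6% over protein-coding ones.

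Of the lung lists, 3 of 9 alveolar type II, 4 of 9 alveolar type I and 0 of 6 club and goblet genes were expressed. These shares of 33.3%, 44.4% and 0% lie below the 53.2% over all symbols and the 68.6% over protein-coding ones. Whether either alveolar list marks a cell type here was not tested. In the alveolar type II list, SFTPD, a surfactant collectin, and SLC34A2, the phosphate transporter of these cells, had 0 counts in every library. LPCAT1, which remodels surfactant lipid but is also active in other cells, had 90.1 ± 3.08 FPKM, the lipid transporter ABCA3 had 18.4 ± 1.15 FPKM and the transcription factor ETV5 had 9.31 ± 0.248 FPKM. These were the 3 expressed genes of the list, and NKX2-1 and the other surfactant proteins were not analysed here. The expressed genes of the alveolar type I list were the caveolins CAV1 at 351 ± 14.3 and CAV2 at 55.7 FPKM, EMP2 at 17.9 FPKM and AGER at 2.102 FPKM, whereas AQP5 had 0 counts. In the club and goblet list the transcription factor FOXA3 was the highest at 0.0185 FPKM, and the mucins MUC5AC and MUC5B had 0, 1 and 0 and 1, 0 and 0 counts. The alveolar type II list was thus divided, with LPCAT1 and ABCA3 above 10 FPKM and SFTPD and SLC34A2 at 0 counts.

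Among transcription factors of organ development, PAX8 and PAX2 stood high. PAX8, a paired box factor of thyroid, kidney and Müllerian duct, had 44.6, 39.3 and 39.7 FPKM in replicates 1, 2 and 3. PAX2, its relative in kidney and urogenital tract, had 35.2, 31.6 and 34.98 FPKM. Both were expressed in every library, and their ranges did not overlap. PAX6, a factor of eye and pancreas, had 7.97 ± 0.217 FPKM and PAX9 2.87 ± 0.429 FPKM, so 4 of 7 measured PAX genes were expressed. The PAX share of 57.1% lies between the 53.2% over all symbols and the 68.6% over protein-coding ones. WT1, a zinc finger factor of kidney and gonad, had 4.701 ± 0.381 FPKM. SOX9, a factor of cartilage and ductal progenitors, had 19.8 ± 0.359 FPKM. These families were examined because their levels had been seen, and their choice is not independent of the values.

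Several hepatic genes had almost no counts. HNF4A, a nuclear receptor of hepatocytes, had 0, 1 and 0 counts, albumin (ALB) 1, 0 and 0 and apolipoprotein B (APOB) 0, 0 and 0. The fibrinogen chain FGG had 0, 0 and 0 counts. HNF4G reached 1.38 FPKM and GATA6, an endodermal zinc finger factor, 1.08 FPKM. In all, 4 of the 17 measured endoderm and hepatic-type genes were expressed, and 8 had a mean under 0.1 FPKM. The expressed share of 23.5% compares with 53.2% over all symbols and 68.6% over protein-coding ones.

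HOX genes record position along the body axis. Of 34 measured, 21 were expressed, 2 of them at 10 FPKM or more. That share of 61.8% lies between the 53.2% over all symbols and the 68.6% over protein-coding ones. HOXB2 led with 17.03 ± 0.525 FPKM, followed by HOXC9 with 15.4 ± 0.167 FPKM, HOXB4 with 8.84 ± 0.228 FPKM and HOXB7 with 7.85 ± 0.254 FPKM. Of the 5′ members, HOXD11 had 7.37 ± 0.147 FPKM, HOXD10 4.41 FPKM and HOXC13 1.68 FPKM, whereas HOXD13 had 0 counts and HOXA13 0.0142 FPKM. Of the 20 pairs of neighbours in the order of expressed HOX genes, 12 overlapped in their library ranges.

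Fibroblast and endothelial genes had no expressed member, and other cell type lists held single genes with clear levels. For comparison, 53.2% of all symbols and 68.6% of protein-coding symbols were expressed. None of 9 measured fibroblast genes was expressed; COL1A1 was the highest at 0.5203 ± 0.0709 FPKM, and 8 had a mean under 0.1 FPKM. All 4 measured endothelial genes had a mean under 0.1 FPKM, with CDH5 the highest at 0.0448 FPKM. Of 4 measured blood cell genes, CD68, a lysosomal protein that many lines express, had 1.89 FPKM, and CD14 had 0.183 FPKM. The leukocyte marker PTPRC and the haemoglobin genes HBA1, HBA2 and HBB were not analysed here. In the ciliated list 0 of 4 genes were expressed in all libraries, and CAPS, the highest, had 1.12, 0.8899 and 1.11 FPKM in replicates 1, 2 and 3. In the basal and squamous list, 2 of 6 were expressed: KRT15 had 13.3 FPKM and PAX9 2.87 FPKM, while TP63, the factor that defines basal cells, had 0, 1 and 0 counts. Synaptophysin (SYP), a vesicle protein of neuroendocrine cells, had 14.6 ± 0.967 FPKM and was the only measured member of its list of 9, so that list could not be read. KRT15 and SYP lay above the median of expressed protein-coding genes, 10.3 FPKM.

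The transcriptome was led by mitochondrial, ribosomal and cytoskeletal RNA. The 13 mitochondrially encoded genes took 7.71%, 6.63% and 7.31% of counts in replicates 1, 2 and 3, lowest in replicate 2. COX1, the catalytic subunit of cytochrome c oxidase, was the highest of all symbols with 14146 ± 869.8 FPKM, then COX2 with 10503 ± 680.4 and COX3 with 10010.2 ± 919 FPKM. The lowest of the 13 was ND6, the only one encoded on the light strand, at 80.6 ± 8.69 FPKM. Among nuclear genes, the elongation factor EEF1A1 was first with 3590.3 ± 69.1 FPKM, then the calcium-binding protein S100A6 with 2456 ± 86.6 FPKM, the actin-binding peptide TMSB10 with 2277 ± 7.95 FPKM and cytoplasmic γ-actin (ACTG1) with 2194 ± 64.6 FPKM. ACTB had 2012 ± 52.4 FPKM and α-tubulin TUBA1B 1522 ± 59.1 FPKM.

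The rest of the 20 highest nuclear genes were mainly ribosomal: RPS2 at 2098, RPS18 at 1879.7, RPL41 at 1776, RPL7A at 1390.1 and RPL13A at 1288 FPKM were followed by RPSA, RPL8, RPS12 and RPLP0 between 1240.0 and 1272 FPKM. RACK1, a scaffold on the small ribosomal subunit, had 1281 FPKM. GAPDH, MT2A and FTH1, the ferritin heavy chain, were in the same set at 1765, 1839 and 1225 FPKM. Of the 100 highest nuclear genes, 47 encoded cytosolic ribosomal proteins. The 77 measured cytosolic ribosomal protein genes had a median of 490.1 FPKM and took 5.05% ± 0.0782 of counts. The 4 of them overlapped by a protein-coding read-through or neighbouring gene (RPL17, RPL24, RPL36A and RPS10) had a median of 19.1 FPKM, against 519 FPKM for the other 73; whether the overlap lowered their counts was not tested.

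**Figure D2:**
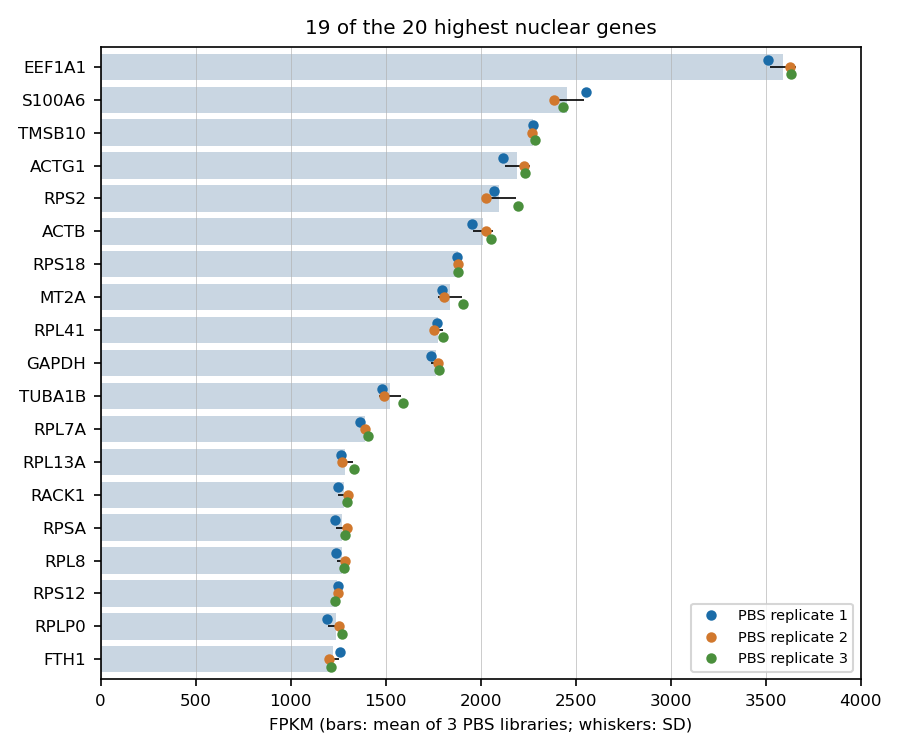
FPKM of 19 of the 20 nuclear genes with the highest mean, on a linear axis that starts at 0. Bars are means over the 3 PBS libraries, whiskers SD and points the single libraries. EEF1A1 stands alone at 3590.3 FPKM, and the genes from TUBA1B down lie between 1225 and 1522 FPKM.

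Of 19876 symbols, 10580 were expressed, 1185 had 0 counts in all 3 libraries and 6167 had a mean under 0.1 FPKM. Protein-coding symbols were expressed in 10029 of 14625 cases and lncRNA symbols in 378 of 4194. The median of expressed genes was 10.3 FPKM for protein-coding and 2.87 FPKM for lncRNA symbols. Means of at least 1000 FPKM were reached by 42 symbols and means from 100 to 1000 FPKM by 455. The 100 highest genes held 40.4% ± 0.889 of the summed FPKM, but 21.0% ± 0.494 of counts when ranked by counts. Library totals were 37203313, 38016879 and 38148838 counts.

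Metallothioneins, small proteins that bind zinc and copper, differed widely among close relatives. MT2A had 1797, 1809.6 and 1909 FPKM in replicates 1, 2 and 3, MT1E 254, 248 and 258 FPKM and MT1X 48.97, 51.7 and 49.8 FPKM. MT1F and MT1M were low, at 2.85 and 1.88 FPKM. MT1B and MT1G had 0 counts, and MT1H had 0, 0 and 1 counts. Thus 5 of 8 measured genes of this cluster (62.5%) were expressed, between the 53.2% over all symbols and the 68.6% over protein-coding ones. The genes are near-identical copies, so how reads were divided among them is uncertain.

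The upstream DNA of a very high, a moderate and a silent member is given for comparison, again as the 250 bases before the start from RefSeq (GRCh38.p14), 5′ to 3′. Capitals mark metal response elements, searched as TGCACNC and TGCGCNC on both strands, and the TATA box, searched as TATAAA on the gene's strand from 40 to 16 bases before the start. All 3 lie on the plus strand, at chr16:56608334-56608583, chr16:56682220-56682469 and chr16:56669564-56669813.
MT2A: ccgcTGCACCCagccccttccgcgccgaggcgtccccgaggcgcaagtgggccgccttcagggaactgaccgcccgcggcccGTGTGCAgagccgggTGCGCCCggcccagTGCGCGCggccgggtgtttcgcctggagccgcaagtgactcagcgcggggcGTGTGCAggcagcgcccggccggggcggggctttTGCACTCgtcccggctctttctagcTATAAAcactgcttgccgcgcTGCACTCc
MT1X: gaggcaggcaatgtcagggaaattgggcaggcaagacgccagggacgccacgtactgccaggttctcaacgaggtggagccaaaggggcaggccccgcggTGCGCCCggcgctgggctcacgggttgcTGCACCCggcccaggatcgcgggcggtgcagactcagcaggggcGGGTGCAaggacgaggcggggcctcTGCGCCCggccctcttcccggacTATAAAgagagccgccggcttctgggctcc
MT1H: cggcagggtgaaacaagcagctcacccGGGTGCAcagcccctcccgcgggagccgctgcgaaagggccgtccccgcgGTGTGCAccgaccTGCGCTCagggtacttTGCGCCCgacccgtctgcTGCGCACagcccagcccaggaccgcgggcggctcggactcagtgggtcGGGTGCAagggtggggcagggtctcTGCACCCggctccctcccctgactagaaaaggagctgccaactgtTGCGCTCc
MT2A held 7 matches to the metal response element, MT1X 4 and MT1H 8. MT2A and MT1X had the TATAAA match and MT1H did not. Of 27305 promoters in the table, 24.7% held at least 1 metal response element and 1.56% held at least 3; 2.54% held TATAAA in that window, or 3.09% with either strand counted. A match is a run of letters and does not show a bound site. Among measured genes, TATAAA was found in 3.57% of those under 0.1 FPKM and in 2.67% of those from 0.1 to 1 FPKM. It was found in 1.05% of those from 1 to 10 FPKM and in 1.30% of those from 10 to 100 FPKM. At 100 FPKM or more it was found in 4.52%, or 18 of 398 genes. A link between this match and level was not tested.

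Of 233 measured receptor, ligand and entry genes, 133 (57.1%) were expressed, and the median over all 233 was 1.86 FPKM. That share lies between the 53.2% over all symbols and the 68.6% over protein-coding ones. The counts of the single lists below can be read against these shares. Among receptor tyrosine kinases, which pass growth factor signals to RAS and PI3K, 18 of 32 were expressed and 12 reached 10 FPKM. EGFR, the receptor of epidermal growth factor, had 74.98, 75.3 and 74.05 FPKM in replicates 1, 2 and 3, and the ephrin receptor EPHA2 had 77.02, 68.4 and 72.5 FPKM. The ranges of EGFR and EPHA2 overlapped. The hepatocyte growth factor receptor MET had 48.2 ± 1.65 FPKM, the collagen receptor DDR1 42.4 ± 3.05 FPKM and AXL, a receptor of GAS6, 36.5 ± 0.6295 FPKM, and these 3 did not overlap one another. PTK7 had 19.6 FPKM, ERBB2 18.8 FPKM and ERBB3 14.5 FPKM, while ERBB4 was at 0.0815 FPKM. The insulin receptor INSR and IGF1R were low at 2.45 and 1.63 FPKM, and PDGFRA and CSF1R had 0 counts.

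The growth factor ligands were below the 5 leading receptor kinases. MDK (midkine) had 31.4 ± 3.01 FPKM and VEGFB, a vascular growth factor, 21.2 ± 1.42 FPKM. PDGFC, GAS6 and VEGFA followed at 12.1, 11.3 and 10.8 FPKM. Of the EGFR ligands, EREG, TGFA and HBEGF had 9.79, 9.34 and 8.98 FPKM and AREG 2.18 FPKM. In all, 16 of 26 ligand genes were expressed, 5 of them at 10 FPKM or more.

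Cytokine and interferon receptors were expressed in 20 of 32 cases. IFNGR2, a chain of the interferon-γ receptor, had 89.6 ± 2.43 FPKM and its partner IFNGR1 14.6 FPKM. The oncostatin M receptor OSMR had 58.6 ± 2.197 FPKM and IL6ST, the shared signalling chain of the IL-6 family, 38.9 ± 2.91 FPKM, while the IL-6 binding chain IL6R was at 0.545 FPKM. IL13RA1, IL10RB and IFNAR2 had 29.7, 24.3 and 24.03 FPKM; IL10RB and IFNAR2 are overlapped by a read-through gene. The interferon-λ receptor IFNLR1 had 0 counts.

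In the TNF receptor superfamily, 13 of 23 were expressed. TNFRSF12A, the receptor of TWEAK, led with 147, 128 and 152 FPKM in replicates 1, 2 and 3, lowest in replicate 2. TNFRSF10B, a death receptor for TRAIL, had 47.4 ± 2.17 FPKM, CD40 had 44.00 ± 3.28 FPKM and the TNF receptor TNFRSF1A 23.8 ± 1.77 FPKM. TNFRSF10A and the decoy TNFRSF10D had 12.5 and 8.79 FPKM. TNFRSF11B, the gene of osteoprotegerin, had 3.72, 2.74 and 2.54 FPKM and was highest in replicate 1. Of related genes, the receptor TNFRSF11A had 0.518 FPKM. The ligand TNFSF10 had 2, 0 and 2 counts, and the ligand TNFSF11 was not analysed here.

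Of 12 TGF-β, activin and BMP receptors, 9 (75.0%) were expressed, led by the co-receptor ENG with 31.2 ± 2.58 FPKM, BMPR1A with 15.04 FPKM and BMPR2 with 10.7 FPKM. TGFBR2 and TGFBR1 had 10.1 and 4.697 FPKM, and another protein-coding gene overlaps TGFBR2. Of 20 WNT, Notch and Hedgehog receptors, 11 (55.0%) were expressed, near the 53.2% over all symbols and below the 68.6% over protein-coding ones, led by NOTCH2 with 29.3 ± 0.597 FPKM, the Frizzled FZD6 with 26.3 ± 0.388 FPKM and the R-spondin receptor LGR4 with 19.1 ± 0.6398 FPKM. NOTCH1 was at 2.49 FPKM, and NOTCH3 and NOTCH4 were near 0 at 0.00303 and 0.00525 FPKM.

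Nuclear receptors, transcription factors that bind hormones and lipids, were expressed in 22 of 37 cases. The orphan receptor NR2F6 led with 43.3 ± 1.21 FPKM, and the oxysterol receptor NR1H2 and the retinoid partner RXRB had 19.3 and 16.5 FPKM. The glucocorticoid receptor NR3C1 had 3.73 FPKM. ESR1 and the xenobiotic receptor NR1I2 had 0 counts. G protein-coupled receptors were the sparsest receptor list, with 10 of 30 expressed and a median of 0.145 FPKM. The zinc-sensing receptor GPR39 had 11.1 ± 0.519 FPKM, the adenosine receptor ADORA2B 9.55 ± 0.297 FPKM and the lysophosphatidic acid receptor LPAR2 6.88 ± 0.218 FPKM. Other protein-coding genes overlap NR3C1 and GPR39, and their part in these levels was not tested.

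Among virus entry factors, 14 of 21 were expressed. Basigin (BSG) had 467 ± 24.6 FPKM, nucleolin (NCL) 306 ± 14.2 FPKM, the rhinovirus receptor ICAM1 151 ± 10.00 FPKM and the integrin chain ITGAV 124 ± 7.24 FPKM. The cathepsins CTSB and CTSL had 80.4 and 32.2 FPKM and the adenovirus and coxsackievirus receptor CXADR 2.24 FPKM. DPP4, the receptor of the MERS coronavirus, was at 0.0569 FPKM.

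**Figure D3:**
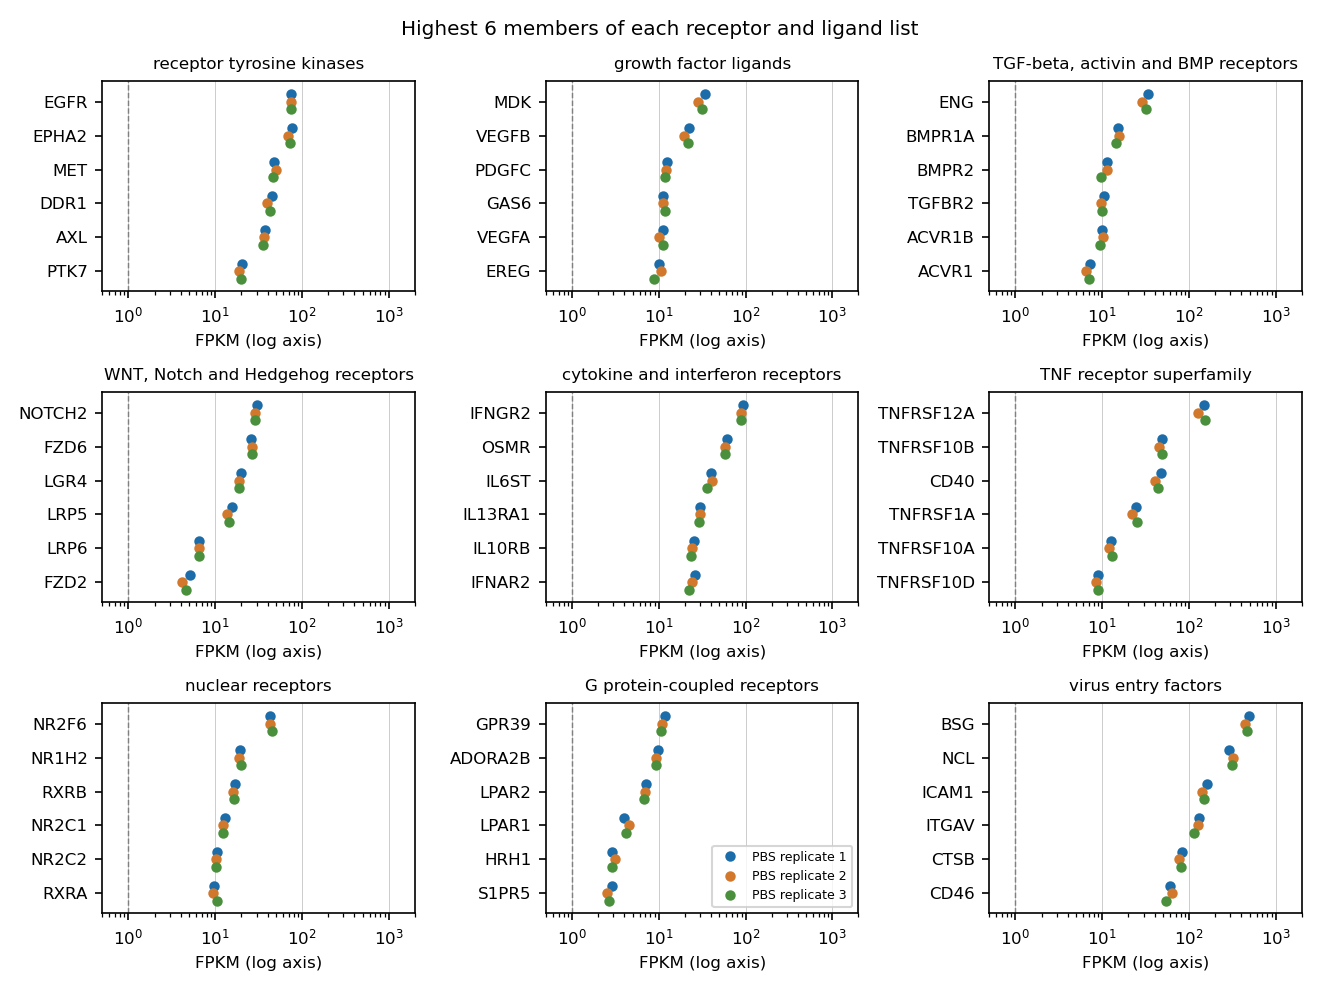
FPKM of the 6 highest members of each receptor and ligand list in PBS replicates 1 to 3, 1 point per library, on log axes with a dashed line at 1 FPKM. The points of a gene lie close together, and only TNFRSF12A, BSG, NCL, ICAM1 and ITGAV lie above 100 FPKM.

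Metabolic genes were expressed in 136 of 161 measured cases (84.5%), and the median over all 161 was 23.0 FPKM. Over all symbols 53.2% were expressed, and over protein-coding symbols 68.6%. Glycolysis was led by GAPDH with 1738, 1775 and 1783 FPKM, the enolase ENO1 with 1109.9, 1127 and 1178 FPKM and lactate dehydrogenase LDHA with 751, 805 and 784 FPKM in replicates 1, 2 and 3. Of 22 glycolytic genes, 21 were expressed and 8 reached 100 FPKM. TPI1, LDHB and PKM followed at 495, 474 and 449 FPKM. The hexokinase HK1 had 25.9 FPKM and HK2 3.05 FPKM, the glucose transporter SLC2A1 had 14.04 FPKM and SLC2A3 0.00457 FPKM. The aldolase ALDOA was listed at only 2.61 ± 0.508 FPKM; a second protein-coding gene, LOC112694756, overlaps it, and the part of that overlap in the value was not tested. In glycogen metabolism, the phosphorylases PYGL and PYGB had 109.6 ± 1.54 and 45.1 FPKM.

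Both lists of genes that NRF2 is known to activate were divided, each with at least 1 member above 100 FPKM and several below 10 FPKM. FTH1 and FTL, the ferritin chains that store iron, had 1225 ± 30.3 and 943 ± 11.1 FPKM, the peroxiredoxin PRDX1 had 563 ± 10.7 FPKM, the lipid peroxidase GPX4 541 ± 9.74 FPKM and haem oxygenase HMOX1 269 ± 6.91 FPKM. TXN and GSTP1 had 288 and 270.1 FPKM. In that list, of glutathione, thioredoxin and iron genes, 23 of 25 were expressed, 8 of them at 100 FPKM or more. The glutathione synthesis genes GCLC and GCLM had 11.2 and 6.899 FPKM, and the cystine transporter SLC7A11 3.16 FPKM. OSGIN1 and the transporter ABCC3 had 2.997 and 2.94 FPKM. In the carbonyl and quinone list, the aldose reductase AKR1B1 had 198 ± 3.66 FPKM, the quinone reductase NQO1 98.5 ± 2.202 FPKM and the epoxide hydrolase EPHX1 29.9 FPKM. That list had 8 of 12 expressed, and the AKR1C genes described above lay at the other end. PTGR1, ALDH3A2 and CBR1 had 29.3, 22.02 and 19.4 FPKM.

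In 3 lists of core metabolism every measured gene was expressed. All 21 measured genes of the tricarboxylic acid cycle and glutamine use were expressed, led by citrate synthase CS with 171 ± 3.21 FPKM, the transaminase GOT2 with 133 ± 4.58 FPKM and MDH1 with 100.1 FPKM. All 20 of fatty acid and cholesterol synthesis were expressed, among them ACLY, which makes cytosolic acetyl-CoA, with 108 ± 3.85 FPKM, FDPS with 99.7 FPKM and the fatty acid synthase FASN with 81.98 FPKM. All 15 of serine, one-carbon and methionine metabolism were expressed, led by thymidylate synthase TYMS with 168, 184 and 178 FPKM in replicates 1, 2 and 3, MAT2A with 129 ± 1.69 FPKM and AHCY with 106 FPKM. In the serine branch PSAT1 had 52.7 FPKM, and PHGDH, the first enzyme of the branch, had 3.85 ± 0.0763 FPKM. MTAP is a member of this list and had the level next above PHGDH.

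Fatty acid oxidation had 7 of 8 genes expressed, led by ACADVL with 95.02 FPKM and HADHA with 58.1 FPKM, and CPT1A, the gate of mitochondrial entry, had 6.39 FPKM. Of 9 urea cycle and polyamine genes, 7 were expressed, led by spermidine synthase SRM with 70.6 FPKM; the urea cycle enzymes CPS1 and ASS1 were at 0.859 and 0.824 FPKM. Drug-metabolizing enzymes were the sparsest metabolic list, with 7 of 21 expressed and a median of 0.177 FPKM. The cytochrome P450 reductase POR had 22.5 ± 1.29 FPKM and the glucuronosyltransferase UGT2B7 5.86 ± 0.411 FPKM. CYP1A1, CYP1B1 and CYP3A5 had means of 0.0239, 0.0101 and 0.00419 FPKM. UGT1A1 and UGT1A6 were not analysed here.

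**Figure D4:**
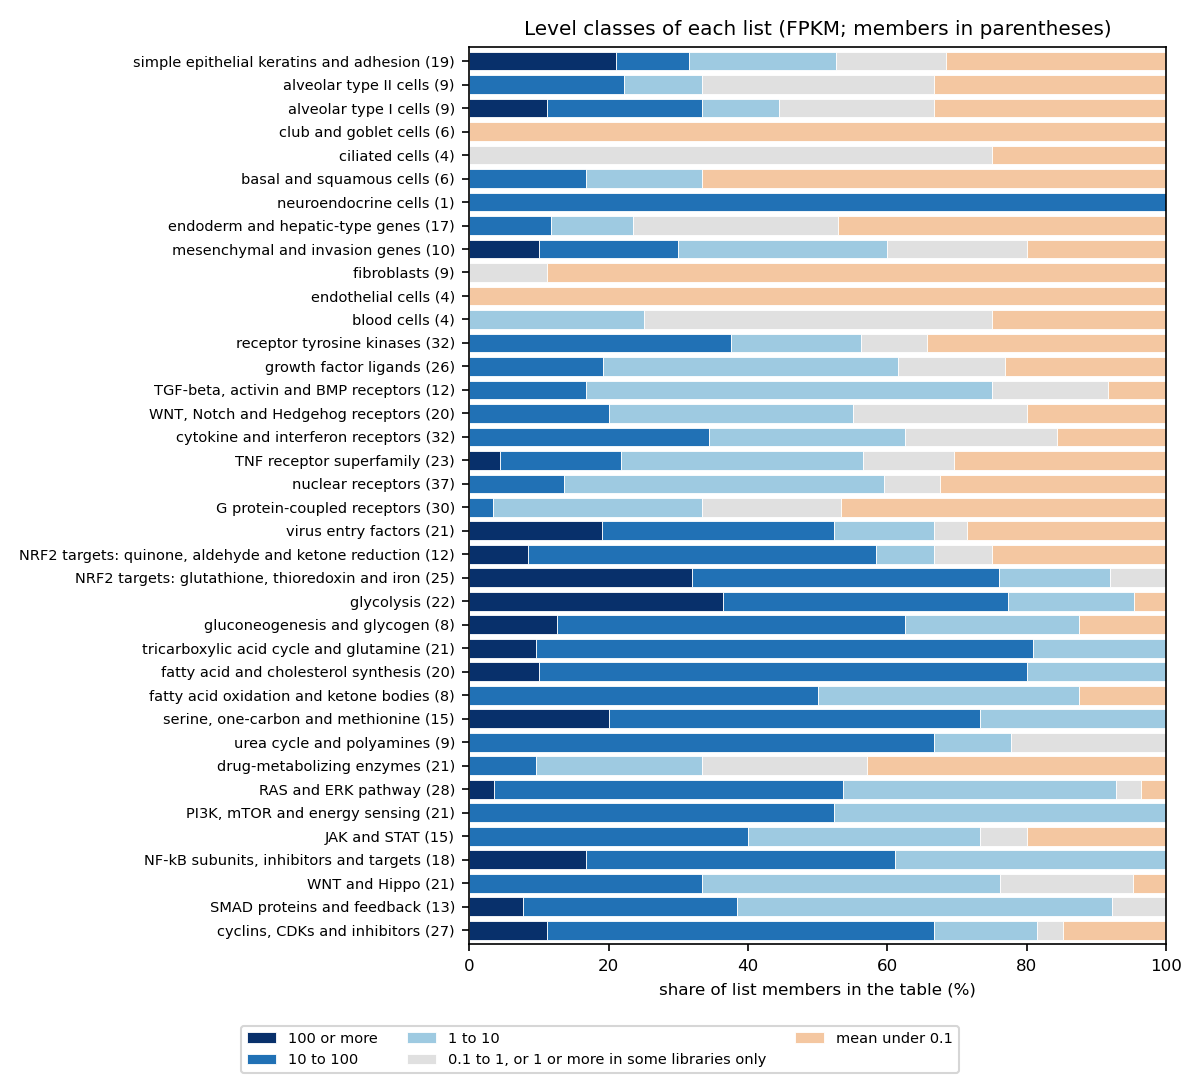
Share of the measured members of each list shown (number in parentheses) in 5 level classes of FPKM, the upper 3 of which hold genes expressed in all 3 PBS libraries. Apart from drug-metabolizing enzymes, the metabolic and signalling lists have most of their members in these upper 3 classes. The lists of club, fibroblast and endothelial genes are pale. G protein-coupled receptors and drug-metabolizing enzymes lie in between with 33.3% expressed.

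Signalling genes were expressed in 143 of 161 measured cases (88.8%), against 53.2% over all symbols and 68.6% over protein-coding ones. The median over all 161 was 9.70 FPKM. In the RAS and ERK pathway, 26 of 28 were expressed. The early response gene IER3 led with 203 ± 12.3 FPKM, then the kinase MAP2K2 with 61.5 FPKM and the adaptor GRB2 with 45.3 FPKM. HRAS and NRAS had 44.1 and 40.6 FPKM. Among the targets and feedback genes of ERK, FOSL1 had 22.9 FPKM, DUSP6 4.87 FPKM and EGR1 4.604 FPKM, while FOS had 18, 14 and 31 counts and DUSP4 was at 0.00972 FPKM. DUSP6 is overlapped by a read-through gene. All 21 genes of the PI3K, mTOR and energy-sensing list were expressed, from PRKAA2 at 2.15 to DDIT4 at 56.03 FPKM, with AKT1 at 49.04 FPKM.

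The NF-κB list had all 18 genes expressed, including secreted targets. The chemokine CCL2, which attracts monocytes, had 277, 237 and 236 FPKM in replicates 1, 2 and 3, and CXCL1, which attracts neutrophils, had 139.6, 131 and 125 FPKM. Both were highest in replicate 1. The inhibitor NFKBIA had 126 ± 5.23 FPKM, BIRC3 50.6 ± 3.86 FPKM, the cytokine TNF 47.2 ± 3.68 FPKM and the subunit RELA 45.99 ± 0.369 FPKM. CXCL8 and IL6 were lower, at 5.81 ± 0.876 and 5.26 ± 0.864 FPKM. Of 18 measured chemokines, 9 were expressed and 7 had a mean under 0.1 FPKM. The expressed share of 50% lies near the 53.2% over all symbols and below the 68.6% over protein-coding ones.

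In the JAK and STAT list, 11 of 15 were expressed, led by JAK1 with 83.2 ± 2.14 FPKM and STAT3 with 55.6 ± 0.934 FPKM, while JAK2 had 0.747 and JAK3 0.02704 FPKM. In the WNT and Hippo list, 16 of 21 were expressed, led by β-catenin (CTNNB1) with 76.7 ± 1.19 FPKM, the YAP target CCN1 with 50.3 ± 1.56 FPKM and YAP1 with 46.4 ± 3.004 FPKM; the WNT feedback gene AXIN2 had 0.446 FPKM. In the SMAD list, 12 of 13 were expressed, led by ID1 and ID3, inhibitors of basic helix-loop-helix factors, with 130.4 ± 2.12 and 78.9 ± 4.57 FPKM, and SMAD3 with 46.6 ± 0.443 FPKM. Among stress response genes, the cytokine GDF15 had 71.4 ± 7.34 FPKM and the apoptosis effector BAX 52.5 ± 2.12 FPKM; CDKN1A (p21) had 22.5 ± 0.353 FPKM and MDM2 9.201 FPKM.

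Of 27 cyclins, kinases, inhibitors and proliferation markers, 22 were expressed, 18 of them at 10 FPKM or more. The mitotic cyclin CCNB1 had 145, 148 and 153 FPKM in replicates 1, 2 and 3 and topoisomerase TOP2A 132, 143 and 135 FPKM. CCND1 and CDK4, which act in G1, had 106 ± 4.58 and 99.7 ± 3.61 FPKM, and MKI67 and MYC had 58.1 ± 1.27 and 21.6 ± 0.383 FPKM. CCND2, MYCN and CDKN1C were near 0, at 0.0136, 0 and 0.00912 FPKM. CDKN2A was 17th of the 27 in order of level and CDKN2B 22nd.

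The spread between the libraries was small. Over the 10580 expressed genes the median coefficient of variation of FPKM was 4.84%, and counting error alone would give 2.01%. It was 6.01% from 1 to 10 FPKM, 4.04% from 10 to 100 FPKM and 3.17% at 100 FPKM or more, against 2.96%, 1.48% and 0.647% from counting. The coefficient was under 10% in 87.5% of expressed genes and over 20% in 99 of them. The median absolute log2 difference was 0.09 between replicates 1 and 2, 0.07 between 1 and 3 and 0.08 between 2 and 3. No more than 5 genes differed more than 2-fold between any pair of libraries. Against sampling noise, for which the chi-square per degree of freedom is near 1, the 3 pairs of libraries gave 5.82 to 9.56, so no library was a copy of another.

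**Figure D5:**
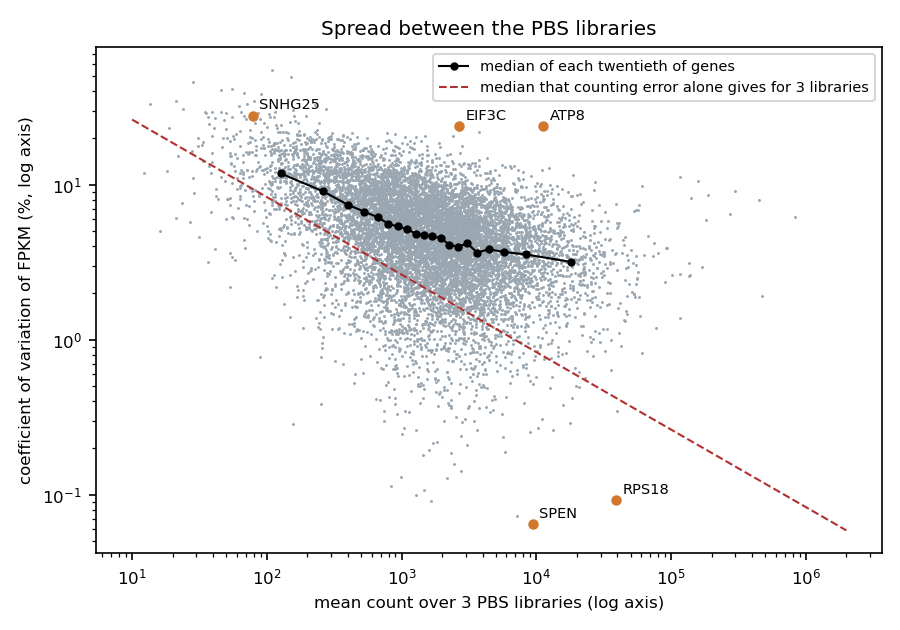
Coefficient of variation of FPKM over the 3 PBS libraries against mean count for the expressed genes, both on log axes. The black line joins the medians of 20 equal groups of genes and the dashed line is the median that counting error alone gives. The black line lies above the dashed line at all 20 points and falls more slowly, and ATP8 and EIF3C lie far above it.

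The genes with the largest spread among those with a mean of at least 5 FPKM were partly short, overlapping or duplicated genes. SNHG25, a host RNA of small nucleolar RNAs, had 23.7, 13.3 and 19.4 FPKM in replicates 1, 2 and 3, with a coefficient of variation of 28.0%. EIF3C, an initiation factor subunit with a near-identical copy, had 24.8, 18.7 and 15.5 FPKM, and the short mitochondrial gene ATP8, which shares bases with ATP6, had 1641, 1041 and 1629 FPKM. ATP8 was low in replicate 2, the library with the smallest mitochondrial share. TMED7, GMFB, LOC102724560, LSM5, FOXN2, EEF1E1, GOLT1B, SCOC, NOMO2, FOXC2-AS1, LCAT and RPS10 made up the rest of the 15, with coefficients down to 19.8%. Replicate 2 was the highest library in 8 of these 15 genes and replicate 3 the lowest in 9. TMED7 and RPS10 are overlapped by read-through genes, and NOMO2 has near-identical copies; their part in the spread was not tested.

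The steadiest genes with a mean of at least 10 FPKM were SPEN, SRPRA, SIRT2, RPS18, THYN1, PCCB, LAMTOR5, SNUPN, GMIP and CIT, with coefficients of 0.0650% to 0.189%. SPEN, a repressor that binds RNA, had 20.04, 20.02 and 20.05 FPKM in replicates 1, 2 and 3. These coefficients lie below the counting error of a single library, which is 1.03% for SPEN, and the genes were picked as the smallest of many. All 15 housekeeping reference genes were expressed, with ACTB the highest at 2012 FPKM, and GAPDH and ACTB had coefficients of 1.37% and 2.604%.

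Lists moved between libraries by small amounts. Against the mean of the other 2 libraries, the median expressed chemokine was 0.20 higher in replicate 1 and 0.26 lower in replicate 3 on the log2 scale. The median mitochondrially encoded gene was 0.17 higher in replicate 1 and 0.21 lower in replicate 2, and the median TNF receptor was 0.15 lower in replicate 2. The median of the epithelial keratin and adhesion list stayed within 0.02 in each library, while that of the 7 expressed keratins was 0.06 higher in replicate 1, 0.06 lower in replicate 2 and 0.07 higher in replicate 3. Tricarboxylic acid cycle genes stayed within 0.05. The 2645 longest expressed genes were 0.04 higher in replicate 2 and 0.03 lower in replicate 3, and the part of gene length in the shifts of the lists was not tested.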

How the data were processed

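Total RNA of the PBS libraries was sequenced as bulk RNA. The authors deposited a table of read counts and a table of FPKM. Per the submitters' processing notes, the build was GRCh38 and the tools were HISAT, HTSeq, fastp, DESeq2 and R 3.2.0; their roles, the annotation and the strand setting were not given in the sources used here. For 100% of 15610 genes with counts in all 3 libraries, the deposited FPKM followed from the count, the library total and 1 gene length per symbol (relative tolerance 0.001), so a length set too long lowers a level.

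From these tables the mean, SD, rank and coefficient of variation per gene were computed with pandas 2.3.3. TMM factors came from edgeR 4.0.16 and median-of-ratios factors from DESeq2 1.42.0. No test was run and no p-value computed. The median spread that counting error gives was checked on simulated data. Gene types, coordinates and promoters came from RefSeq tables of GRCh38.p14 (18832 symbols matched). The 42 lists hold 818 genes, 677 of them measured. Named were the 20 highest nuclear genes, the highest members of each list (up to 6), defining members near 0, genes altered in A549, and the 15 most and 10 least variable genes. Families such as HOX, PAX and the metallothioneins, and some other members, were picked after their values were seen. A number of the genes under this rule are not reported here. The question, members and lists were chosen with earlier results of these data known.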

Additional observations from a re-analysis of the deposited data

How the results depend on the processing

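The number of expressed genes stayed between 9511 (FPKM of at least 2) and 13062 (at least 10 counts), and between 10624 and 10655 without 1 replicate. The share of the 100 highest genes was 21.0% by counts and 28.0% without the mitochondrial genes, and 40.01% to 40.87% without 1 replicate. The median coefficient of variation was 3.94% at a mean FPKM of at least 10, 6.73% over genes with a count in every library, 4.82% with TMM-scaled CPM, 4.83% with size factors and 3.60% to 4.22% without 1 replicate, where it comes from 2 libraries. With thresholds of 0.5 and 2 FPKM, the expressed share was 39.8% and 26.5% for lineage genes (31.6% at 1 FPKM), 63.1% and 48.5% for receptors (57.1%), 87.6% and 80.7% for metabolism (84.5%), and 90.1% and 85.7% for signalling (88.8%). The median ribosomal protein level was 519 FPKM without genes that a read-through gene overlaps, an alternative chosen after seeing the data. Of 300 named genes, the 239 with a mean of at least 1 FPKM moved by at most 1.31 times when 1 replicate was left out. Of the 61 with a lower mean, 21 moved by over 1.5 times, 11 of them to 0, so single libraries decide those means. No paired analysis was possible because only the PBS group was used and the result comes from no test. With 3 libraries an SD is itself imprecise, and from 0.1 to 1 FPKM, with a median of 31 counts, the median coefficient of variation was 22.7%, where counting error alone gives 14.1%.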
